A study of Oryctolagus cuniculus with 12 samples.

Results

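Genes of the Wnt pathway were followed through normal skin, hypertrophic scar and treated scar of the rabbit ear. The set held 10 genes in 3 roles: the ligands WNT2 and WNT5A, the secreted antagonists SFRP1, SFRP2, SFRP4, FRZB, DKK3 and WIF1, and the targets AXIN2 and LEF1. Each was taken from the expression table by its symbol, and 9 of the 10 were found among 29587 genes. SFRP1 had no row under its symbol. All 9 found genes passed the filter for testing, an FPKM averaging 1 or more across libraries, which 13287 genes passed. FPKM counts the fragments on a gene per length of the gene and size of the library.

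RNA-seq was performed on the full thickness ear of wild-type female rabbits, 10 to 12 weeks old, with 3 libraries in each of 4 groups. NS was normal skin that received neither wound nor treatment. HS was an untreated hypertrophic scar, raised by wounds 7 mm wide, 4 on each ear, that reached through the perichondrium. In the drug-loaded MNs group, each scar received 1 patch of separating microneedles carrying a 5-fluorouracil prodrug on days 22, 29 and 36, and in the 5-Fu injection group 0.1 mL with 120 μg of 5-fluorouracil was injected into each scar on the same days. All tissue was taken on day 43. Drug-free microneedles were not analysed here, so the drug and the needles cannot be told apart. Groups were 3 rabbits each per the study's methods, and nothing in the labels ties a library to 1 rabbit or 1 scar, so the p-values measure the spread between libraries. In bulk tissue, fewer cells of a type and less RNA per cell cannot be told apart.

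Wnt proteins are lipid-modified secreted ligands that bind Frizzled receptors. With the co-receptors LRP5 and LRP6 they stabilise β-catenin, which enters the nucleus and acts through TCF and LEF factors on targets such as AXIN2, itself a feedback inhibitor. Ligands such as WNT5A also signal through ROR2 without β-catenin. Secreted Frizzled-related proteins and WIF1 bind the ligands outside the cell, and Dickkopf proteins act at the co-receptors, although DKK3 is a divergent member of that family whose effect on Wnt signaling varies with context. In skin the pathway is known for hair follicle growth, wound repair and fibroblast activation.

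Reads on genes ranged from 10521472 to 14043667 per library, and 1 read on a gene of 1 kilobase was worth an FPKM of 0.0768 to 0.0972. The member with the fewest reads in any library was SFRP4, with 25 reads in NS replicate 2. Marker lists described the tissue. The summed FPKM of 9 fibroblast markers of 10 written was 2670 to 3743 in NS, 37975 to 49979 in HS, 19426 to 27914 with drug-loaded MNs and 5426, 27320 and 6987 in the 5-Fu injection replicates 1, 2 and 3. The sum of 8 keratinocyte markers of 10 was 2323 to 4081 in NS, 1514 to 2097 in HS, 4045 to 9125 with drug-loaded MNs and 2980 to 5769 with 5-Fu injection. The sum of 10 cartilage markers of 12 ranged widely within each group, from 1706 to 3548 in NS, 505 to 5169 in HS, 902 to 5380 with drug-loaded MNs and 510 to 5754 with 5-Fu injection. None of the matched markers of these 3 lists was at 0 in any library. RNA of these markers was thus found in each sample, but how much of each tissue a sample held was not measured. The 5-Fu injection replicate 2 stood apart from the other two of its group in the fibroblast sum, and it was the highest of its group for 6 of the 9 Wnt genes.

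In HS against NS, the antagonists SFRP2, SFRP4 and DKK3 and the nuclear factor LEF1 rose, by 30.5-, 4.00-, 5.51- and 3.73-fold between the group means. No Wnt gene of the set fell past the thresholds, although FRZB and WIF1 were lower in every HS library than in any NS library. The remaining genes, WNT2, WNT5A and AXIN2, were higher in every HS library but did not pass the test. A gene was called when its adjusted p in limma was under 0.05 and its log2 fold change was above 1 in size. The 4 called genes of 9 stand beside 5.00% of all tested genes. The groups did not overlap for 9 of 9 genes, 7 higher and 2 lower in HS, beside 33.3% of all tested genes. The set was chosen with earlier results of these data known, so these counts do not test it against other genes.

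SFRP2, the best expressed gene of the set in scar, was at an FPKM of 47.9, 48.7 and 20.2 in NS and 375, 1829 and 1360 in HS. Every scar library lay above every normal skin library, and HS replicate 1 lay well under the other two. The group means were 38.9 ± 16.2 (SD, n = 3) and 1188 ± 742, with a log2 fold change of 4.72 (SE 0.54, 95% interval 3.53 to 5.91, adjusted p = 0.00129). Among the genes tested, SFRP2 ranked 154 by mean FPKM. The gene, ENSOCUG00000016660, lies on the minus strand of chromosome 15 from 10007158 to 10014838 in the coordinates of the deposited table, whose genome build is not given in the sources used here.

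**Figure D1:**
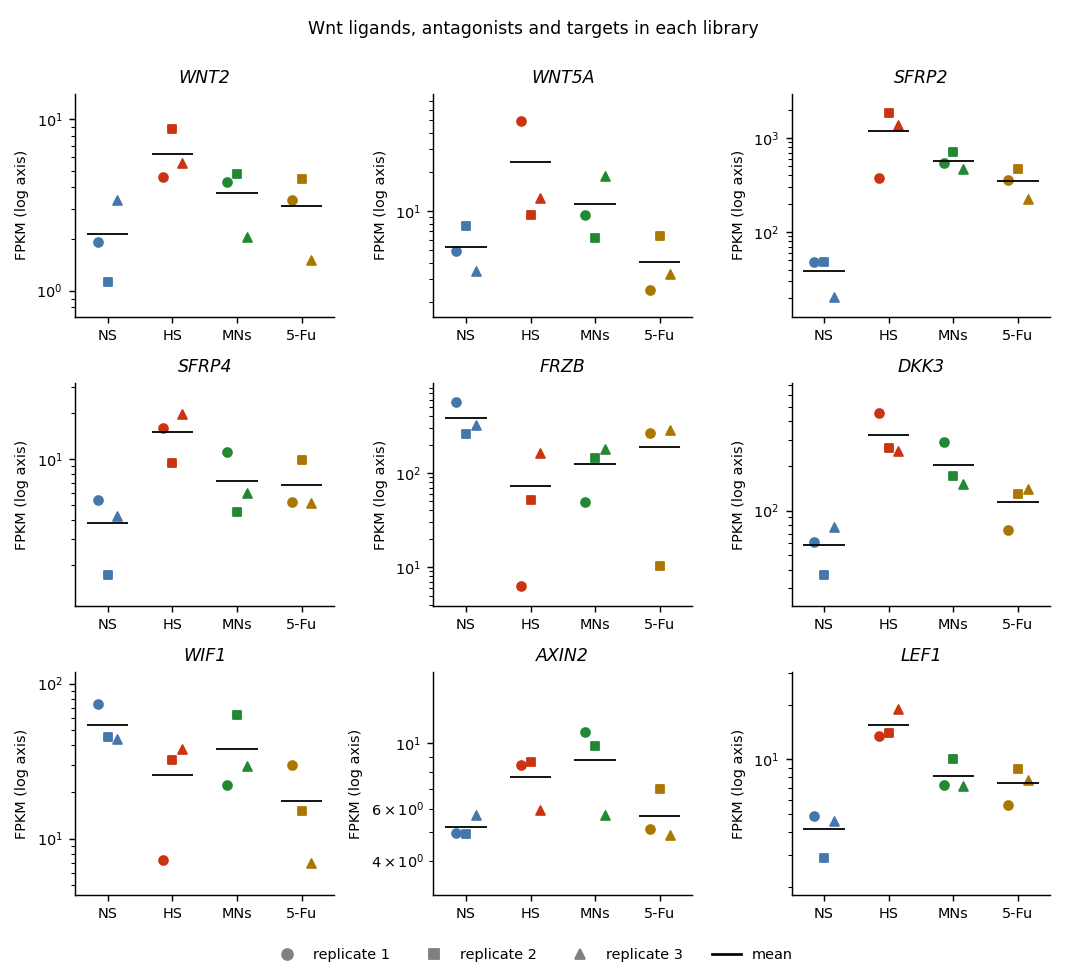
FPKM (log axis) of the 9 Wnt genes in each of the 12 libraries, by group (NS, HS, drug-loaded MNs as MNs, 5-Fu injection as 5-Fu). Symbols mark the replicate numbers, which were not used to pair samples between groups, and lines mark group means. In each panel the HS points lie wholly above or, for FRZB and WIF1, wholly below the NS points.

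SFRP4, another Frizzled-related antagonist with a far lower FPKM than SFRP2, was at an FPKM of 5.35, 1.73 and 4.23 in NS and 16.0, 9.37 and 19.8 in HS. The log2 fold change was 1.78 (SE 0.40, adjusted p = 0.0235). This call rested on single libraries: the adjusted p was 0.0747 when NS replicate 2 was left out, 0.0810 when HS replicate 1 was and 0.0863 when HS replicate 3 was. DKK3 was at 61.0, 36.6 and 77.5 in NS and at 451, 262 and 251 in HS, so the lowest scar value was over the highest normal value. Its log2 fold change was 2.45 (SE 0.36, adjusted p = 0.00339).

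FRZB, also known as SFRP3 and first found in cartilage, went the other way from SFRP2 and SFRP4. Its FPKM was 562, 260 and 320 in NS and 6.24, 51.1 and 163 in HS. From the lowest to the highest library, FRZB differed by 26.1-fold within HS and by 2.16-fold within NS. With means of 381 ± 160 and 73.3 ± 80.5, the log2 fold change was -3.19, but its SE was 1.28 and the adjusted p was 0.161. WIF1, a ligand-binding inhibitor of a separate structural family, was at 74.2, 45.1 and 43.8 in NS and 7.32, 31.9 and 38.0 in HS. Its log2 fold change of -1.29 (SE 0.63) did not pass either, at an adjusted p of 0.246. HS replicate 1 was the lowest scar library for both genes.

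The 4 secreted Frizzled-related genes with a symbol in the table, SFRP2, SFRP4, FRZB and SFRP5, are compared here as shares of their summed FPKM. SFRP5 is a further member of the family, chosen for this sum as the other one with a row. In NS, FRZB made up 81.6%, 77.7% and 78.5% of the sum and SFRP2 6.95%, 14.5% and 4.96%. In HS the order was turned round, with SFRP2 at 91.1%, 95.7% and 87.4% and FRZB at 1.52%, 2.67% and 10.5%. The sum itself was 688, 335 and 408 in NS and 412, 1912 and 1556 in HS, so the groups overlapped in total level while they did not in makeup. In the drug-loaded MNs libraries SFRP2 held 89.6%, 80.4% and 70.2% and FRZB 8.05%, 16.6% and 27.1%. The 5-Fu injection libraries were split: SFRP2 held 54.5% and 41.9% in replicates 1 and 3 but 93.8% in replicate 2, where FRZB held 2.06%. Shares between genes depend on the gene lengths in the table, and these shares are a description with no test.

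**Figure D2:**
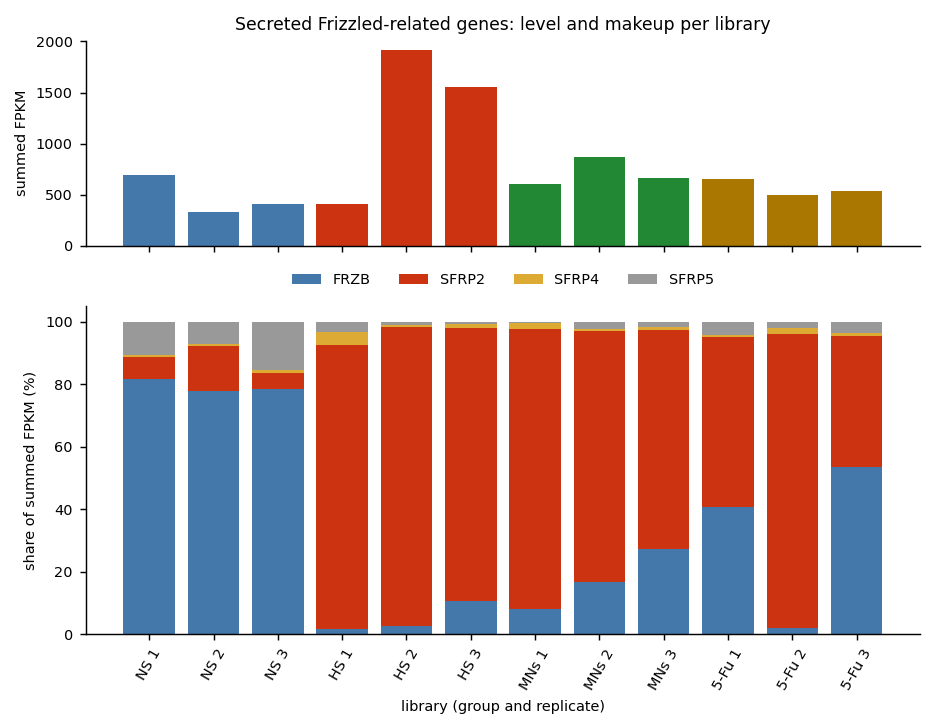
Upper bars show the summed FPKM of SFRP2, SFRP4, FRZB and SFRP5 in each library, coloured by group, and lower bars the share of each gene in that sum (%). FRZB takes 77.7% to 81.6% in NS, SFRP2 takes 87.4% to 95.7% in HS, and 5-Fu injection replicate 2 (93.8% SFRP2) lies in the HS range while replicates 1 and 3 lie between.

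SFRP1 could be followed only outside the rule. An unnamed row, ENSOCUG00000026917, is described in the table as secreted frizzled-related protein 1, and it was picked after its values were seen. Its FPKM was 20.1, 13.6 and 11.7 in NS, 19.4, 38.8 and 46.3 in HS, 24.1, 19.8 and 34.2 with drug-loaded MNs and 16.6, 25.7 and 6.90 with 5-Fu injection. The groups overlapped in each of these, and the log2 fold change of 1.10 (SE 0.44) in HS against NS had an adjusted p of 0.156. It is in no count of the 9 genes.

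FRZB was set beside the cartilage and fibroblast marker sums of each library. Over the 12 libraries, log2 FRZB had a Pearson r of 0.76 with the log2 cartilage sum and of -0.70 with the log2 fibroblast sum. WIF1 had an r of 0.64 and -0.31 with them, and SFRP2 had -0.07 and 0.90. These values describe libraries that share groups and depth, and they carry no p. The lowest FRZB values, 6.24 in HS replicate 1 and 10.3 in 5-Fu injection replicate 2, came from the libraries with the lowest cartilage sums, 505 and 510. In HS replicate 3, by contrast, the cartilage sum of 5169 was over that of every NS library, and FRZB, at 163, was still under that of every NS library. DKK3 and LEF1, like SFRP2, had an r of 0.90 with the fibroblast sum. The part of cartilage or fibroblast content in the differences of these genes was not tested.

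**Figure D3:**
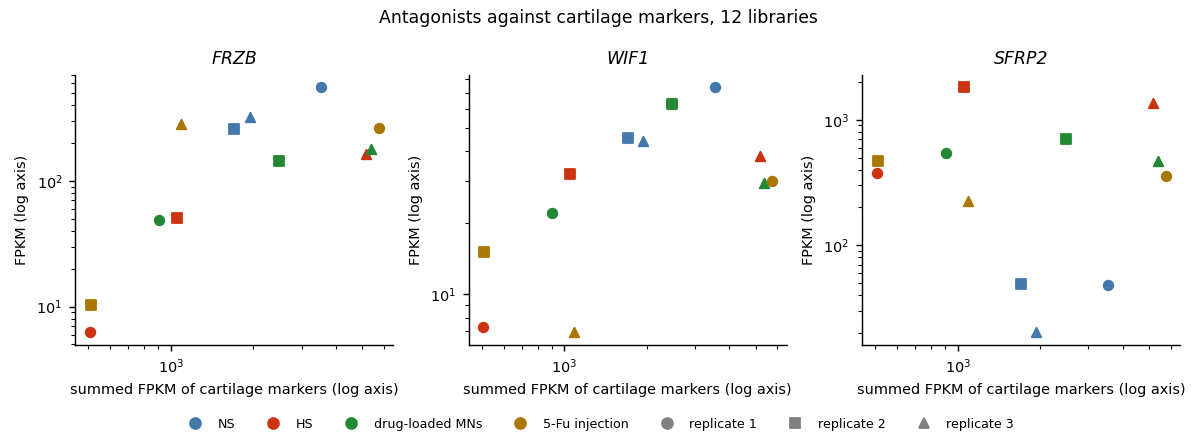
FPKM of FRZB, WIF1 and SFRP2 against the summed FPKM of 10 cartilage markers (both axes log), 1 point per library, coloured by group and shaped by replicate. FRZB is lowest in the 2 libraries with cartilage sums of 505 and 510, and SFRP2 shows no such order.

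Both ligands were higher in HS without passing the test. WNT5A, a ligand of the β-catenin-independent branch, was at 4.91, 7.60 and 3.43 in NS and 49.9, 9.24 and 12.5 in HS. A single scar library, HS replicate 1, accounted for the high mean of 23.9 ± 22.6, and the log2 fold change of 1.65 (SE 0.57) had an adjusted p of 0.111. WNT2, a ligand expressed by fibroblasts, was at 1.93, 1.13 and 3.39 in NS and 4.60, 8.74 and 5.53 in HS. Its log2 fold change was 1.23 (SE 0.38, adjusted p = 0.0734). The lowest HS value of each ligand was over the highest NS value, by a narrow gap.

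The targets behaved unequally. LEF1, a nuclear partner of β-catenin that is also a target of the pathway, was at 4.90, 2.89 and 4.62 in NS and 13.5, 14.0 and 18.9 in HS, and the log2 fold change was 1.69 (SE 0.23, adjusted p = 0.00212). AXIN2, the common readout of β-catenin signaling, was at 4.96, 4.93 and 5.70 in NS and 8.44, 8.62 and 5.94 in HS. HS replicate 3 lay close to the normal values, and the log2 fold change of 0.47 (SE 0.23, 95% interval -0.04 to 0.98) had an adjusted p of 0.251. That interval lies under that of LEF1, which ran from 1.19 to 2.18, but the difference between the genes was not tested.

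After drug-loaded MNs, no gene of the set was called against HS. Of the 9, 6 had lower and 3 higher means than HS. Limma voom on the reads called 0 of the 9, but also 0 of all 13287 tested genes. At an unadjusted p under 0.05, 2 of the 9 passed, beside 1183 of 13287 tested genes. Of all genes tested, 0.00753% were called in this comparison, which was 1 gene. The study's DESeq2 test at the same thresholds reported more genes here. LEF1 was the only one of the 9 whose groups did not overlap, beside 18.9% of all tested genes, with an FPKM of 7.28, 10.0 and 7.14. Every drug-loaded MNs library lay between the NS and HS ranges, and the log2 fold change of LEF1 was -0.85 (SE 0.23, 95% interval -1.34 to -0.35, adjusted p = 0.294).

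SFRP2 was at 544, 701 and 467 in the drug-loaded MNs libraries, inside the HS range (log2 fold change -0.80, SE 0.54, adjusted p = 0.704). DKK3 was at 291, 170 and 150, and replicate 1 lay among the HS values (log2 fold change -0.66, SE 0.36, adjusted p = 0.631). SFRP4 was at 11.2, 4.47 and 6.02, with replicate 1 over the lowest HS library (log2 fold change -0.99, SE 0.40, adjusted p = 0.524). These 3 antagonists thus had lower means than in untreated scar, with overlap in each case. FRZB was at 48.9, 145 and 181 and WIF1 at 22.0, 62.9 and 29.3, both with higher means than HS. WNT5A was at 9.32, 6.21 and 18.6, WNT2 at 4.28, 4.78 and 2.04, and AXIN2 at 10.9, 9.77 and 5.70. AXIN2 had its highest group mean here, 8.80 ± 2.74, although its values overlapped those of HS.

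After 5-Fu injection, DKK3 fell against HS and the means of 8 of the 9 genes were lower. The 1 called gene of 9 stands beside 2.29% of all tested genes. DKK3, LEF1, WNT5A and WNT2 were lower in every treated library than in any HS library, 4 of 9 beside 30.3% of all tested genes. DKK3 was at an FPKM of 74.5, 129 and 139, against 251 to 451 in HS, with a log2 fold change of -1.48 (SE 0.36, adjusted p = 0.0451). That call was near the threshold: it was lost without any 1 of the 3 HS libraries or of replicates 1 and 3 of the 5-Fu injection, with adjusted p of 0.0983 to 0.116.

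The other 3 genes that did not overlap with HS missed a threshold. LEF1 was at 5.63, 8.87 and 7.68, with a log2 fold change of -0.97 (SE 0.23) whose adjusted p of 0.0389 passed while its size did not. WNT5A was at 2.45, 6.46 and 3.26, so that replicate 2 lay in the NS range of 3.43 to 7.60 and the other two lay under it. Its log2 fold change was -2.00 (SE 0.57, adjusted p = 0.0675), and -1.30 without HS replicate 1. WNT2 was at 3.39, 4.49 and 1.50, just under the lowest HS value of 4.60 (log2 fold change -0.85, SE 0.38, adjusted p = 0.181). Without 5-Fu injection replicate 2, the library with high fibroblast markers, DKK3, LEF1 and WNT5A were all called, the last with a log2 fold change of -2.32 (adjusted p = 0.0431). Over all 13287 tested genes the count of calls then rose too, from 304 to 803.

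Among the other antagonists, SFRP2 was at 356, 469 and 223 after 5-Fu injection, and replicate 2 alone lay over HS replicate 1, the lowest scar library at 375. Its log2 fold change was -1.55 (SE 0.54, adjusted p = 0.110). SFRP4 was at 5.20, 9.82 and 5.15, and only replicate 2 reached the HS range (log2 fold change -1.05, SE 0.40, adjusted p = 0.134). FRZB was at 265, 10.3 and 285, so that replicates 1 and 3 lay over every HS library and replicate 2 lay near the bottom of the HS range. This split left the log2 fold change of 1.27 with an SE of 1.28. WIF1 was at 30.0, 15.1 and 6.93 and AXIN2 at 5.14, 7.01 and 4.90, both overlapping with HS.

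Set against each other, the 2 treatments did not differ past the thresholds for any gene of the set, nor for any of the 13287 tested genes (0%). The study's DESeq2 test at the same thresholds did report genes that differed between the treatments, so this count belongs to the fit used here. Both comparisons above share the HS libraries, so the direct comparison is given on its own. On the log2 scale of the fit, all 9 means were higher with drug-loaded MNs than with 5-Fu injection. Limma voom called 0 of the 9 and 0 of all tested genes. Of the 9, 2 were at an unadjusted p under 0.05, beside 2009 of 13287 tested genes. DKK3 was the only one whose groups did not overlap, beside 17.1% of all tested genes, at 150 to 291 against 74.5 to 139 (log2 fold change 0.82, SE 0.36, 95% interval 0.02 to 1.61, adjusted p = 0.321). WNT5A had a log2 fold change of 1.24 (95% interval -0.01 to 2.50) and WIF1 one of 1.16 (95% interval -0.22 to 2.55), each with overlap. For FRZB the interval ran from -2.61 to 3.03, so differences of several fold either way remained possible. The directions of WNT2, SFRP4, FRZB and LEF1 turned when single libraries were left out. Leaving out 5-Fu injection replicate 2 moved FRZB to a log2 fold change of -1.33, and SFRP4 also turned under quantile normalization, to -0.003.

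Against NS, SFRP2 and DKK3 remained higher in scars treated with drug-loaded MNs, 2 called genes of 9 beside 0.873% of all tested genes, and 5 of 9 had groups that did not overlap, beside 20.6%. SFRP2 had a log2 fold change of 3.92 (SE 0.54, adjusted p = 0.0179) and a 14.7-fold difference of means, and DKK3 a log2 fold change of 1.79 (SE 0.36, adjusted p = 0.0466). Neither call was held by every set of libraries. SFRP2 lost it without NS replicate 1 or 2 or any 1 drug-loaded MNs library, at adjusted p of 0.0511 to 0.0895, and DKK3 without the same libraries, at 0.0997 to 0.172. After 5-Fu injection 0 genes of the set were called against NS, beside 0.00753% of all tested genes. Limma voom called 0 of the set, beside 1 of all tested genes. Of the 9, 3 did not overlap, beside 18.8%, and 4 were at an unadjusted p under 0.05, beside 1981 of 13287 tested genes. SFRP2 was nevertheless over every NS library by a wide gap, 223 to 469 against 20.2 to 48.7 (log2 fold change 3.17, SE 0.54, adjusted p = 0.0769).

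The wider pathway was read from a list of 102 ligands, antagonists, receptors, relay proteins and targets, the set included. This list too was written with earlier results of these data known. A row was matched by symbol for 77, and 67 passed the filter. In HS against NS, 13 of the 67 rose and 2 fell, with a median log2 fold change of 0.24 over the list and -0.01 over all tested genes. With the members of the set left out, 9 of 58 rose and 2 fell, with a median of 0.20. Over all tested genes 665 were called, 469 higher and 196 lower. With FPKM rescaled to the total of reads, which moved the median of all genes to -0.33, the split was 11 higher and 5 lower for the list, and 311 higher and 749 lower for all genes. After drug-loaded MNs 0 of the 67 were called against HS, with a median of -0.13. Limma voom called 0 of the list and 0 of all tested genes. At an unadjusted p under 0.05 there were 13, beside 1183 of 13287 tested genes. After 5-Fu injection 9 were called, all lower than in HS, with a median of -0.46 beside 0.02 over all tested genes, of which 304 (2.29%) were called, 68 higher and 236 lower (125 and 160 with rescaling). With the members left out, 8 of 58 were called after 5-Fu injection, all lower. The fibroblast marker sum was lower in these libraries too, at 5426, 27320 and 6987 against 37975 to 49979 in HS, and its part in the 9 calls was not tested. All 9 calls were lost when any 1 HS library or 5-Fu injection replicate 1 or 3 was left out, when the count over all genes was 0 to 16. Without 5-Fu injection replicate 2 there were 13 called genes of the list, 12 lower and 1 higher, beside 803 over all genes, 500 lower and 303 higher. The treatments set against each other gave 0 called genes of the list and a median of 0.27, and limma voom called 0 of the list and 0 of all tested genes. At an unadjusted p under 0.05 there were 18, beside 2009 of 13287 tested genes. Against NS, the drug-loaded MNs libraries had 4 called genes, DKK3, IGFBP4, LGR5 and SFRP2, beside 0.873% of all tested genes. None of the 4 held without NS replicate 1 or 2 or drug-loaded MNs replicate 1 or 3, and only IGFBP4 without drug-loaded MNs replicate 2. The 5-Fu injection libraries had 0 called against NS and 0 in limma voom, which called 1 of all tested genes. At an unadjusted p under 0.05 there were 19 of the list, beside 1981 of 13287 tested genes.

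Of 11 tested ligands, WNT5B and WNT16 rose and WNT10A fell in HS against NS, beside 5.00% of all tested genes called. WNT10A, an epidermal ligand whose loss is known to disturb skin appendages and teeth, was at a mean FPKM of 8.89 ± 0.41 in NS (SD, n = 3) against 2.28 ± 0.72 in HS (log2 fold change -1.61, SE 0.22, adjusted p = 0.00263). It had means of 6.46 ± 2.23 with drug-loaded MNs and 4.99 ± 0.42 with 5-Fu injection, and every library of both treatments lay over every HS library. The keratinocyte marker sum was likewise lowest in HS, at 1514 to 2097, and over it in every other library, and its part in the WNT10A values was not tested. Against HS, the adjusted p was 0.188 with drug-loaded MNs, and with 5-Fu injection it was 0.0495 at a log2 fold change of 0.89, under the fold threshold. WNT5B, a close relative of WNT5A, was at 4.03 ± 1.54 in NS and 9.33 ± 2.66 in HS (log2 fold change 1.06, SE 0.25, adjusted p = 0.0274), a call lost under rescaling to total reads, with no filter, with only the groups compared, with the replicate block and without NS replicate 1 or 2 or HS replicate 2 or 3. WNT16 was at 1.33 ± 0.53 and 7.51 ± 5.06 (log2 fold change 1.73, SE 0.43, adjusted p = 0.0330), and its call was lost with no filter, with only the groups compared, with the replicate block and without any 1 library other than HS replicate 1. The ligand with the highest mean over all libraries, WNT3, was at 15.8 ± 9.13 in NS, 10.0 ± 1.51 in HS, 24.9 ± 4.55 with drug-loaded MNs and 18.9 ± 3.15 with 5-Fu injection, and none of these differences was called. Every library of both treatments lay over every HS library, as for 18.9% and 30.3% of all tested genes that did not overlap. Against HS the log2 fold change was 1.23 with drug-loaded MNs (adjusted p = 0.251) and 0.85 with 5-Fu injection (adjusted p = 0.123). WLS, the carrier that takes Wnt proteins to the cell surface, rose from 27.1 ± 3.81 to 87.8 ± 17.5 in HS (log2 fold change 1.65, SE 0.18, adjusted p = 0.00109). It was at 54.7 ± 7.40 after drug-loaded MNs and fell to 38.3 ± 6.78 after 5-Fu injection (log2 fold change -1.17, SE 0.18, adjusted p = 0.0205).

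**Figure D4:**
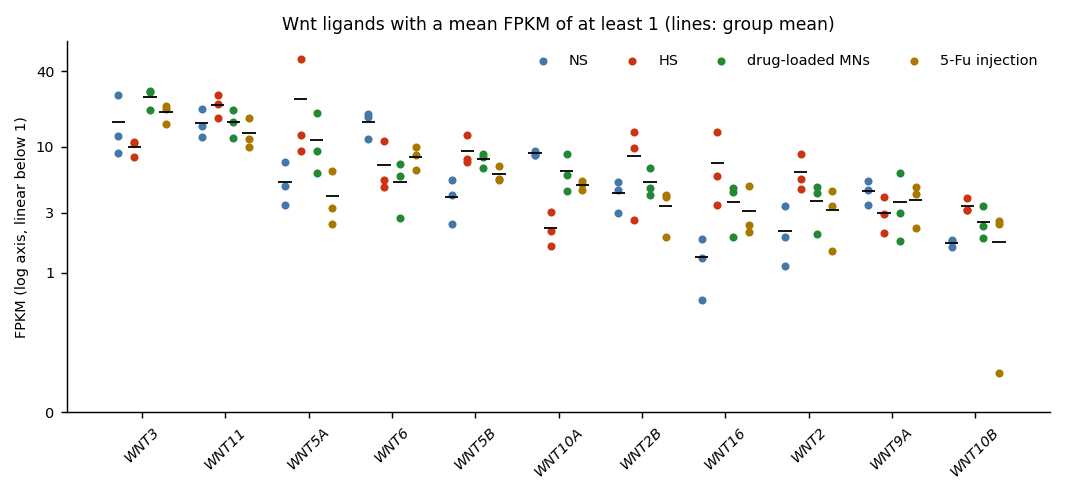
FPKM of the 11 Wnt ligands with a mean of at least 1, ordered by their mean over all libraries, 1 point per library and a line at each group mean (log axis, linear under 1). WNT10A has its lowest values in HS, 1.64 to 3.06, where WNT5B and WNT16 have their highest group means.

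Of 11 tested antagonists, SFRP2, SFRP4, DKK3 and IGFBP4 were called in HS against NS, beside 5.00% of all tested genes. The antagonists as a whole had a median log2 fold change of -0.05 in that comparison. IGFBP4 binds insulin-like growth factors and is also known to interfere with Frizzled and LRP6. It had the highest mean FPKM of the antagonists, with 251 ± 29.7 in NS, 1414 ± 241 in HS, 771 ± 148 with drug-loaded MNs and 569 ± 193 with 5-Fu injection. The log2 fold change was 2.48 (SE 0.25, adjusted p = 0.000842) in HS against NS and -1.35 (SE 0.25, adjusted p = 0.0271) after 5-Fu injection against HS.

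Of 13 tested receptors and co-receptors, 3 rose and 1 fell in HS against NS, beside 5.00% of all tested genes called. ROR2, the WNT5A receptor, went from 10.9 ± 3.05 to 41.4 ± 5.89 (log2 fold change 1.86, SE 0.30, adjusted p = 0.00518). PTK7, a kinase-dead co-receptor of planar polarity, went from 16.1 ± 1.82 to 102 ± 48.0 (log2 fold change 2.50, SE 0.39, adjusted p = 0.00445). FZD1, the Frizzled with the highest mean FPKM here, went from 51.8 ± 7.33 to 107 ± 26.2 (log2 fold change 1.01, SE 0.21, adjusted p = 0.0164), and this call was lost under quantile normalization, under rescaling to total reads and without NS replicate 1 or 2 or HS replicate 1. FZD9 fell from 47.9 ± 16.1 to 5.48 ± 3.06 (log2 fold change -2.96, SE 0.79, adjusted p = 0.0452). This call was lost when any 1 library was left out, and with a pseudocount of 0.1, with no filter and with limma voom. After 5-Fu injection ROR2, PTK7 and FZD1 fell against HS, by 1.50, 1.71 and 1.25 on the log2 scale (adjusted p of 0.0292, 0.0387 and 0.0224), and so did the co-receptor LRP6, by 1.25 (adjusted p = 0.0205). LRP6 had not been called in HS against NS, at 8.56 ± 1.04 and 13.0 ± 2.15, and its 5-Fu injection mean of 4.90 ± 1.12 lay under both.

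LGR5, an R-spondin receptor best known from stem cells of the hair follicle and gut, was at an FPKM of 1.15 to 1.69 in NS and 18.7 to 22.3 in HS (log2 fold change 3.13, SE 0.40, adjusted p = 0.00177). After drug-loaded MNs it was at 9.14 to 15.9, under every HS library but still called against NS (log2 fold change 2.44, adjusted p = 0.0232). After 5-Fu injection it fell to 1.07 to 7.39 (log2 fold change against HS -2.32, SE 0.40, adjusted p = 0.0240). The summed FPKM of 4 hair follicle markers of 8 was 21.6 to 325 in NS (median 325), 51.1 to 898 in HS (median 626), 145 to 571 with drug-loaded MNs (median 424) and 104 to 217 with 5-Fu injection (median 127). Among the 3 scar groups these medians had the order of LGR5, but the NS median lay over that of 5-Fu injection, and the NS and HS ranges overlapped. The fibroblast sum had the order of LGR5 in all 4 groups, with medians of 2990 in NS, 6987 with 5-Fu injection, 23601 with drug-loaded MNs and 44232 in HS. The part of follicle or fibroblast content in the LGR5 values was not tested. LGR4, the R-spondin receptor with the highest mean FPKM, was at 13.5 ± 3.12 in NS and 10.3 ± 3.20 in HS and was not called in any comparison.

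Inside the cell, 0 of 13 tested relay genes were called in any comparison, among them CTNNBIP1, an inhibitor of β-catenin with the highest mean FPKM of the group, at 115 ± 35.7 in NS and 78.2 ± 15.1 in HS. At an unadjusted p under 0.05 limma gave 3 of these 13 in HS against NS, 3 in drug-loaded MNs against HS and 9 in 5-Fu injection against HS. Over all 13287 tested genes the counts were 3109, 1183 and 3449. For the relay genes limma voom called 0 in each of the 6 comparisons. Over all tested genes it called 680 in HS against NS, 363 in 5-Fu injection against HS and 98 in drug-loaded MNs against NS. It called 0 of all genes in drug-loaded MNs against HS and against 5-Fu injection, and 1 in 5-Fu injection against NS. Of the 4 TCF and LEF factors LEF1 alone was called in HS against NS, where 5.00% of all tested genes were called. TCF7L1, the best expressed of them, was at 20.1 ± 6.73 in NS and 22.4 ± 3.62 in HS. Of 8 tested genes listed as targets, AXIN2 among them and LEF1 counted with the factors, CCN4 was the only one called. The share over all tested genes was 5.00% in HS against NS and 2.29% in 5-Fu injection against HS. CCN4, a matricellular protein also named WISP1, rose from 3.20 ± 0.59 to 23.2 ± 3.39 in HS (log2 fold change 2.53, SE 0.47, adjusted p = 0.00947) and fell after 5-Fu injection to 4.98 ± 3.78 (log2 fold change -2.18, SE 0.47, adjusted p = 0.0337). MYC, the target with the highest mean FPKM, was at 32.9 ± 8.85 in NS and 23.3 ± 5.32 in HS.

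**Figure D5:**
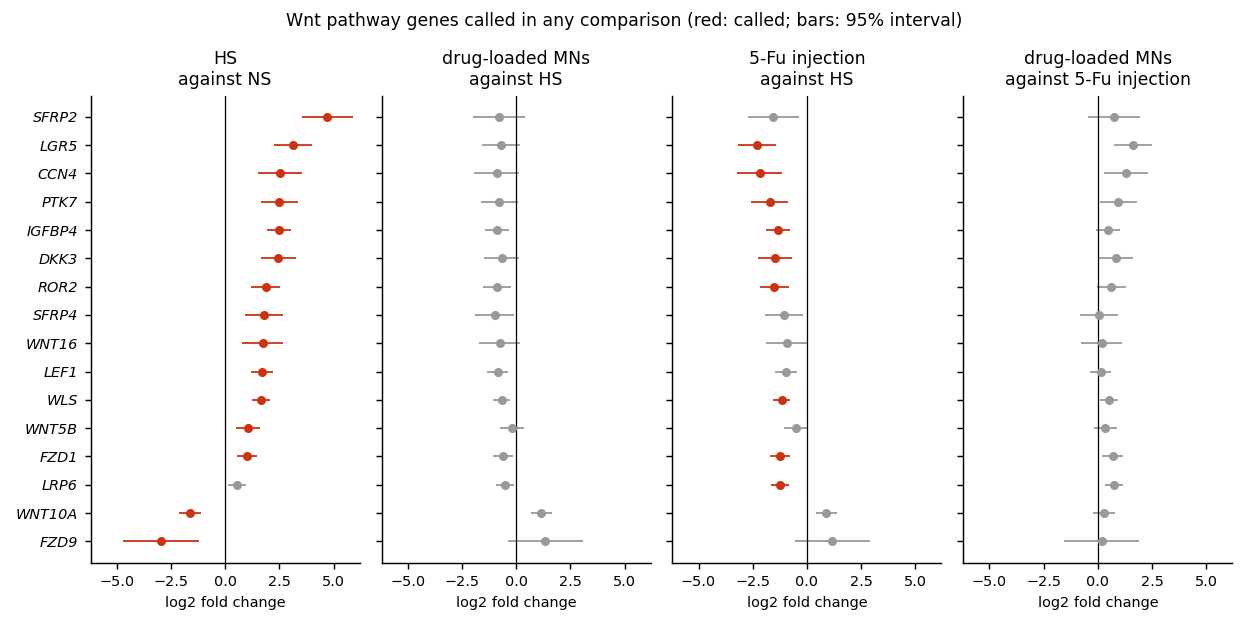
Log2 fold change with its 95% interval from limma for the 16 genes of the Wnt list called in at least 1 comparison of the 6, in 4 of those comparisons; red marks a call and grey none. In HS against NS, 13 red points lie over 0 and 2 under it, and after 5-Fu injection all 9 red points lie under 0.

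Over the 12 libraries, the Wnt genes of the set had pairwise Pearson correlations from -0.67 to 0.87 on the log2 scale. The highest were those of LEF1 with DKK3 (0.87) and SFRP4 (0.85), of SFRP4 with DKK3 (0.85) and of LEF1 with SFRP2 (0.83), and the lowest those of FRZB with DKK3 (-0.67), AXIN2 (-0.64) and WNT5A (-0.63). The ligands had an r of 0.26 with each other, and FRZB and WIF1 one of 0.60. AXIN2 was closest within the set to DKK3 (0.73). The libraries share the 4 groups, so these values carry no p.

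The genes most like each member in log2(FPKM + 1) over the 12 libraries were sought among all tested genes with a symbol, the members left out. The r values are thus the highest picked from all these genes, over libraries that share the 4 groups, and they carry no p. FRZB was closest to ENPP2 (r = 0.99), which makes lysophosphatidic acid, CLEC3A (0.98), a lectin of cartilage, and SERPINA3 (0.97). DKK3 was closest to ANGPTL2 (0.98), TGFB3 (0.97) and MAGED1 (0.97). SFRP2 was closest to ART5 (0.97), PTGFR (0.96) and PAMR1 (0.95), and SFRP4 to STEAP2 (0.95), EXT2 (0.94) and HFE (0.92). For LEF1 they were OLFM2 (0.96), TUSC3 (0.96) and SCUBE2 (0.95). Among the ligands, WNT2 was closest to GLB1 (0.94), STXBP6 (0.93) and GNPDA1 (0.93), and WNT5A to DNMT3A (0.94), IGF2BP1 (0.93) and GABPA (0.92). WIF1 was closest to FHDC1 (0.94), TNRC6C (0.94) and MAP2 (0.94). The weakest likeness was that of AXIN2, with SLC9A5 (0.88), VSTM4 (0.87) and MORC4 (0.87).

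The remaining members are identified as follows in the coordinates of the deposited table. WNT2 (ENSOCUG00000016173) lies on the plus strand of chromosome 7 from 27896473 to 27940607, and FRZB (ENSOCUG00000010371) on the minus strand of the same chromosome from 122924477 to 122969548. WNT5A (ENSOCUG00000000380) is on chromosome 9, SFRP4 (ENSOCUG00000015877) on chromosome 10, DKK3 (ENSOCUG00000004841) on chromosome 1 and WIF1 (ENSOCUG00000014907) on chromosome 4, each on the minus strand. AXIN2 (ENSOCUG00000012115) is on chromosome 19 and LEF1 (ENSOCUG00000010436) on chromosome 15, both on the plus strand. SFRP2 and LEF1 thus share a chromosome, with LEF1 from 41363490 to 41500080.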

How the data were processed

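Bulk mRNA of 12 full thickness rabbit ear samples, 3 per group, was purified with poly-T beads and sequenced by the authors, who deposited 1 table of FPKM values for 29587 genes. The aligner, the counting tool and the genome build are not given in the sources used here. Multiplied by gene length, 100% of the deposited FPKM values fell on whole multiples of a step per library, within 0.02 reads, so reads were counted back. The values were scaled between libraries: the library size implied by the FPKM, divided by the reads counted back, was 1.12 to 1.20 in NS and 0.873 to 0.932 in HS.

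Groups were taken from the labels. The authors used DESeq2 on counts, at the same thresholds, and reported more genes in each of their comparisons than the fit used here called. Here limma 3.58.1 in R 4.3.3 was fitted to log2(FPKM + 1), which understates changes of low genes, over all samples and 13287 genes (FPKM averaging 1 or more), with trended empirical Bayes moderation and p-values adjusted by Benjamini-Hochberg in each of 6 comparisons. The fit was tested on simulated data. The members, the gene lists and the tests were chosen with earlier results of these data known. Genes named are the members, listed pathway genes called in any comparison, the listed gene with the highest mean FPKM in each role, and the 3 genes most like each member; others are marked where named. Alternatives were a pseudocount of 0.1, no filter, a filter at a mean FPKM of 5, quantile normalization, FPKM rescaled to total reads, limma voom on the reads, only the groups compared, no trend, a replicate block, adjusted p alone, and each library left out in turn. No sequences are shown, because the reference used here held none. Precision rests on 3 libraries a group.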

Additional observations from a re-analysis of the deposited data

How the results depend on the processing

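Of 804 refitted fold changes of the 9 Wnt genes, 757 kept their direction and their side of the thresholds, 28 lost a call, 4 gained one and 15 turned round. In HS against NS, 4 genes were called under each alternative other than leaving out a library, which gave 3 to 4 of the set and 10 to 13 of the pathway list. In 5-Fu injection against HS, the count of 1 for the set became 2 with a pseudocount of 0.1, with limma voom and with the adjusted p alone, and 0 with no filter, rescaling to total reads, only the groups compared, no trend and the replicate block. The pathway count of 9 became 4 with no filter, 0 with only the groups compared and 4 with the replicate block. Leaving out 1 library gave 0 to 3 for the set and 0 to 13 for the list, with 3 and 13 reached without 5-Fu injection replicate 2. Over all genes the count of 304 became 803 without that library, 16 and 12 without replicates 1 and 3, 9, 0 and 0 without HS replicates 1, 2 and 3, and 0 with only the groups compared. In drug-loaded MNs against NS, the count of 2 became 1 with no filter, rescaling to total reads, only the groups compared, no trend and the replicate block, and the pathway count of 4 became 1 with the replicate block. Leaving out 1 library gave 0 to 2 and 0 to 6. The other comparisons had 0 called genes of the set in every refit. The causes were not tested.

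Fold changes that turned round were all of genes not called in either form. Under single settings they were SFRP4 in drug-loaded MNs against 5-Fu injection with quantile normalization (-0.0033) and AXIN2 in 5-Fu injection against NS with rescaling (-0.094). The others turned when a library was left out. In drug-loaded MNs against HS, WIF1 ran from -0.015 to 1.10 and AXIN2 from -0.012 to 0.40, and in 5-Fu injection against HS, WIF1 ran from -1.18 to 0.022. In drug-loaded MNs against 5-Fu injection, WNT2 ran from -0.12 to 0.49, SFRP4 from -0.26 to 0.33, FRZB from -1.33 to 1.00 and LEF1 from -0.031 to 0.26. AXIN2 in 5-Fu injection against NS ran from -0.041 to 0.18.

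Replicate numbers were not used to pair the samples. Deviations of same-numbered samples had a mean r of -0.19 to 0.12 over the 6 comparisons, and in none did every pair exceed 0.1. In 5-Fu injection against NS, however, 6 of 6 samples were most like the sample with their own number, at r of 0.20, 0.09 and 0.05. The count was 0 to 3 of 6 in the other comparisons, where the highest r was 0.44, for replicate 2 in drug-loaded MNs against HS. The replicate block changed no other count of calls of the set or the pathway list by over 1.5 times. Over all genes it lowered the count from 304 to 99 in 5-Fu injection against HS and from 116 to 23 in drug-loaded MNs against NS. In HS against NS that count went from 665 to 579. The depth put 10.3 to 13.0 reads on a 1 kilobase gene whose FPKM was 1.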

Other observations

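A few pathway genes stood apart in level between HS and NS without a call in the main fit, and they were chosen after their values were seen. Those given with a fold change were all lower in HS, while 43 of the 67 tested list genes had higher means there and 24 lower. Uncalled genes that were higher in every HS library also occurred, such as the receptor RYK, at 34.6 ± 3.64 in NS and 58.7 ± 1.74 in HS. SFRP5, a further Frizzled-related antagonist, was at a mean FPKM of 53.7 ± 26.0 in NS (SD, n = 3) against 16.9 ± 4.82 in HS, lower in every HS library (log2 fold change -1.50, adjusted p = 0.167). RSPO3, a secreted enhancer of Wnt signaling, was at 9.41 ± 3.76 in NS and 1.90 ± 1.51 in HS, again lower in every HS library (log2 fold change -1.93, adjusted p = 0.0867). RSPO2, of the same family, went the other way, at an FPKM of 0 to 0.111 in NS and 0.709 to 5.70 in HS. It was under the filter and was not tested. WNT6 was at 15.7 ± 3.58 in NS and 7.14 ± 3.50 in HS (log2 fold change -1.10, adjusted p = 0.0815). With FPKM rescaled to total reads RSPO3 and WNT6 were called, and WNT6 also without HS replicate 2.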
